A study of Mus musculus with 20 samples.

Results

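Messenger RNA of the proteasome genes was followed through 5 stages of mouse spermatogenesis. The genes were taken by symbol: every row of the count table whose name is Psm followed by a letter from a to g and a number. This gave 48 of the 23366 genes in the table. They comprised 7 standard subunits of the alpha ring, the testis alpha subunit Psma8, 7 standard and 3 immune subunits of the beta ring, the thymus beta subunit Psmb11, 6 ATPases and 11 further subunits of the regulatory cap. The remaining 12 were 7 assembly chaperones, 4 activators and the inhibitor Psmf1. Of the 48, 47 passed the filter on low counts, and Psmb11 did not, with 0 to 3 counts in each library.

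The mice were wild type, of the strain C57Bl/6J, with no treatment. Whole testis was taken on day 1, day 3 and day 7 postpartum, and spermatocytes were purified from adults of 70 to 80 days. The purification (STA-PUT) sorts cells by diameter and density as they settle, and gave a combined leptotene/zygotene fraction and a pachytene fraction, whose purity the submitters judged by microscopy. Each of the 5 stages had 2 biological replicates, giving 10 RNA libraries. Leptotene, zygotene and pachytene are successive stages of the first meiotic prophase. A whole testis of the first week holds Sertoli, Leydig, peritubular, vascular and immune cells beside spermatogonia, so each comparison of spermatocytes with day 7 testis sets purified cells of adults against a mixed tissue of young mice. In such bulk RNA, fewer cells of a type and less RNA per cell cannot be told apart.

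The proteasome is the barrel-shaped protease that degrades proteins tagged with ubiquitin. Its core is a stack of alpha and beta rings. The alpha rings form the gate and the beta rings carry the active sites, in Psmb5, Psmb6 and Psmb7. Cells exposed to interferon build in the immune subunits Psmb8, Psmb9 and Psmb10 instead, and germ cells of the testis build in Psma8 in place of Psma7. A cap with a ring of ATPases unfolds substrates and feeds them to the core, and other activators, among them Psme1 to Psme4, can bind in its place. Psme4 (PA200) is known in testis for the degradation of acetylated histones when spermatids replace histones.

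Counts on genes ranged from 3597360 to 22181395 per library, with the lowest in leptotene/zygotene replicate 1. Levels are given as CPM, counts divided by the library total times a scaling factor (TMM). For day 7 testis these factors were 1.37 and 1.38. They were lower for leptotene/zygotene (0.572 and 0.486) and pachytene (0.766 and 0.783). CPM therefore do not add up to the same total in each library. The proteasome genes took 0.313% to 0.51% of the counts. A floor of 3 counts was worth 0.0999 to 1.46 CPM. Replicates of the purified stages differed more than those of testis: the SD of the log2 difference over the 47 genes was 0.148 to 0.254 in testis, but 0.727 for leptotene/zygotene and 0.554 for pachytene. Reads not assigned to a gene came to 63.3% and 64.5% in replicate 1 of these stages and 45.4% and 49% in replicate 2. The leptotene/zygotene libraries stood against their label in marker genes. Summed levels of 7 spermatid markers, Prm1 and Tnp1 among them, were 48700 to 58900 CPM there, 4420 to 6270 CPM in pachytene and 1.16 to 1.53 CPM at day 7. Summed levels of 7 leptotene and zygotene markers, 508 to 980 CPM there, overlapped those in pachytene, 640 to 1070 CPM. Most of the leptotene/zygotene sum came from Syce1, at 368 and 710 CPM there and 384 and 525 CPM in pachytene. Sertoli markers (9 genes) were at 49.2 to 138 CPM in leptotene/zygotene and 225 to 292 CPM in pachytene, against 3890 to 4000 CPM on day 7, and Neurog3, of the spermatogonial list, was the marker at 0 counts in both leptotene/zygotene libraries. In the same order of stages (day 7, leptotene/zygotene, pachytene), 7 pachytene markers summed to 99.4 to 102, 14500 to 15600 and 12200 to 12900 CPM, and 7 spermatogonial ones to 259 to 303, 30.1 to 52.5 and 16.6 to 45.1 CPM. Leydig markers (6 genes) summed to 358 to 534, 5.71 to 19.4 and 38 to 39.4 CPM, and endothelial ones (6 genes) to 209 to 213, 24.5 to 51.5 and 19.8 to 47.6 CPM. The 5 peritubular markers summed to 820 to 846, 497 to 616 and 98.4 to 128 CPM, of which Actg2 gave 413 and 581 CPM in leptotene/zygotene. In the pachytene sums, Pgk2 gave 6100 and 3940 CPM in leptotene/zygotene and 1740 and 938 in pachytene. Piwil1 was at 137 and 120, then 895 and 1470 CPM. Between these stages 5 of the 7 pachytene markers were higher in pachytene and 2 lower. The test described below called 3 higher and 0 lower, beside 9.03% and 13.2% of all genes. The part of spermatid RNA in the values below was not tested. Counts for pachytene against day 7 are also given without the leptotene/zygotene libraries.

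Promoters show where some of the genes with the largest changes start. RefSeq sequences of GRCm38.p6 were at hand for 40 of the 48 genes, read over the 250 bases before the start. Psma7, Psme4, Psmf1 and Psmb9 are shown, as the standard alpha subunit, the activator and the inhibitor with large differences below, and as an immune subunit. They are printed in the direction of transcription, with the CCAAT box in capitals (as ATTGG where it is on the other strand).
Psma7, chr2:180042465-180042714, minus strand: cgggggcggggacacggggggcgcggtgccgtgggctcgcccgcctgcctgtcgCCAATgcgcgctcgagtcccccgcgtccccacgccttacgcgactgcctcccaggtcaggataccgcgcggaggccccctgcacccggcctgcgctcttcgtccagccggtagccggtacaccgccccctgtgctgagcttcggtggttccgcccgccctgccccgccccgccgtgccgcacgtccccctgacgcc
Psme4, chr11:30771525-30771774, plus strand: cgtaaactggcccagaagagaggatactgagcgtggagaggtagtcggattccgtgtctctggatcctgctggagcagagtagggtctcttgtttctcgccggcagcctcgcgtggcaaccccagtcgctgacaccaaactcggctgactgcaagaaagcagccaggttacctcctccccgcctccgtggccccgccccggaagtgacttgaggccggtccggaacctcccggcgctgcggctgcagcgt
Psmf1, chr2:151741311-151741560, minus strand: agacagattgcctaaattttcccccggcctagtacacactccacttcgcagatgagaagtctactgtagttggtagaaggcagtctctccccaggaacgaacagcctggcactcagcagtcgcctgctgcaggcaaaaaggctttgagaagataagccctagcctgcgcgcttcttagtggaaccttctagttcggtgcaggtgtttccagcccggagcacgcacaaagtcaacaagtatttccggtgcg
Psmb9, chr17:34187331-34187580, minus strand: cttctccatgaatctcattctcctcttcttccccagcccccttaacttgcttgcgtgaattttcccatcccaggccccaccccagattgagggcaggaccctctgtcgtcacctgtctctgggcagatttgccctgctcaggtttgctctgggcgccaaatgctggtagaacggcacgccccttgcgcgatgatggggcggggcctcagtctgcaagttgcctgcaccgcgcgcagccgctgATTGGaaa
Psma7 and Psmb9 hold a CCAAT box and Psme4 and Psmf1 do not.

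Searched on both strands, CCAAT was in 14 of the 40 promoters (35%), against 34.5% of 27025 promoters of the same length. Of the 7 standard alpha genes, 5 held it (Psma1, Psma2, Psma3, Psma6 and Psma7), and these included genes that were higher, lower and not called in spermatocytes. TGACNNNGC, the antioxidant response element bound by Nfe2l1 and related factors, was in 5 of 40 (12.5%, against 10.1%): Psmb5, Psmb6, Psmc6, Psmd9 and Psmd12. The interferon-stimulated element, searched as GAAA, any 2 bases and GAAA, was in 3 of 40 (7.5%, against 3.04%): Psmb3, Psmd4 and Psmd9. TGACGTCA, the cyclic AMP element, was in 0 of 40, against 1.62%. The interferon-stimulated element was more frequent than over all promoters, but on 3 genes and in none of the 3 immune subunits. TGACGTCA and TGACNNNGC can share their first 4 letters.

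In the first week, no proteasome gene passed the test. Between day 3 and day 1, 0 of 47 were called at an adjusted p of 0.05 in edgeR's quasi-likelihood test, beside 0% of the 16872 genes tested. None had an unadjusted p under 0.05, and DESeq2 also called 0. The median log2 difference (day 3 minus day 1) was 0.30 over the proteasome genes and 0.00 over all genes, and 41 of 47 were positive. That offset sat mainly in day 3 replicate 1: its 31 standard subunits summed to 2590 CPM, against 2010 CPM in replicate 2 and 1910 and 1890 CPM at day 1. The libraries of these stages did not overlap for 28 of 47 genes, beside 46.2% of all genes. Between day 7 and day 3, 0 of 47 were called by edgeR and 0 by DESeq2, beside 1.49% of all genes, and 2 (Psma8 and Psmd5) had an unadjusted p under 0.05. The libraries did not overlap for 12 of 47, beside 57.5% of all genes. In a fit without the 4 spermatocyte libraries, chosen after seeing the data, 3 of the proteasome genes were called higher at day 7. Over all genes that fit called 2126, 1006 higher and 1120 lower. The 3 were Psma8 by 1.41 ± 0.25 on the log2 scale (SE, adjusted p = 0.014), Psmd5 by 0.53 ± 0.14 (adjusted p = 0.0418) and Psme3 by 0.53 ± 0.12 (adjusted p = 0.0312).

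Between spermatocytes and day 7 testis the proteasome genes split. In leptotene/zygotene, 28 of 47 (59.6%) were called, 8 higher and 20 lower, beside 78.5% of all genes (36.5% higher and 42% lower). In pachytene, 21 of 47 (44.7%) were called against day 7, 9 higher and 12 lower, beside 75.2% of all genes (35.1% higher and 40.1% lower). Both comparisons share the day 7 libraries. The 8 genes higher in leptotene/zygotene were Psma6, Psma8, Psmc2, Psmc3, Psmd2, Psmd8, Psme4 and Psmf1. All 8 were also called higher in pachytene, where Psmd6 joined them. A fit without the leptotene/zygotene libraries was added after seeing the data. It called 25 proteasome genes in pachytene against day 7, 11 higher and 14 lower. Over all genes it called 12979, 5963 higher and 7016 lower. The libraries did not overlap for 35 of 47 genes in leptotene/zygotene against day 7 and for 36 of 47 in pachytene against day 7, beside 89.2% and 89.8% of all genes. Another 17 genes were called in no comparison that involves spermatocytes.

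**Figure D1:**
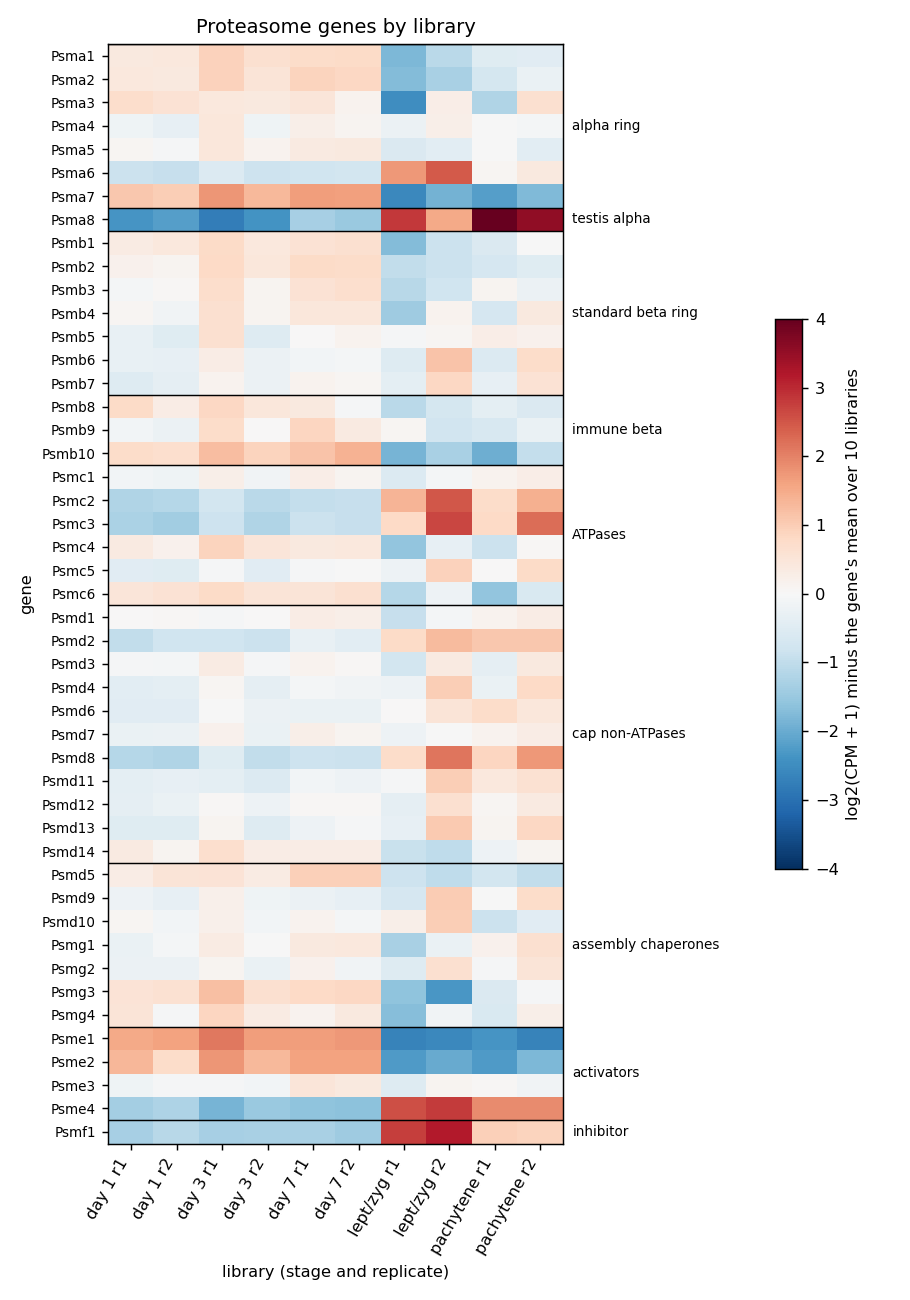
Levels of the 47 tested proteasome genes (rows, by class) in the 10 libraries (columns, stage and replicate), as log2(CPM + 1) minus the gene's mean over the libraries, with the colour scale ending at 4 in either direction. The 6 testis columns look alike, while the spermatocyte columns hold both strong reds (Psma8, Psme4, Psmf1, Psmc2, Psmc3) and strong blues (Psma7, Psme1, Psme2, Psmb10).

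The split moved with the scaling of the libraries. The median log2 difference of all genes (leptotene/zygotene minus day 7) was -0.31 as scaled here, 0.01 with median-ratio factors, -0.70 with upper-quartile factors and -1.71 with plain library sizes. The median of the proteasome genes was -0.47, -0.15, -0.84 and -1.87 in the same order. The calls were 13 higher and 14 lower with median-ratio factors, 14 and 15 with DESeq2, and 7 and 35 with plain library sizes. Without leptotene/zygotene replicate 1 they were 17 higher and 15 lower. In pachytene against day 7 they were 10 higher and 9 lower with median-ratio factors, 10 and 10 with DESeq2, 9 and 18 with upper-quartile factors, and 7 and 27 with plain library sizes. No call changed direction under any alternative tried. Of the calls, 19 of 28 in leptotene/zygotene and 16 of 21 in pachytene held under every alternative.

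RNA was compared for the 2 paralogues of the alpha4 position of the core. Which of them the core held was not measured, and the part of the differing cell types was not tested. Psma8, the testis alpha subunit, was at 3.94 and 4.57 CPM on day 1, then 2.73 and 3.9 on day 3, then 9.1 and 8.1 on day 7, then 181 and 72.2 for leptotene/zygotene, and 652 and 300 for pachytene. Psma7, the standard subunit of that position, was at 60.2 and 56.6 CPM on day 1, then 96.6 and 70.3 on day 3, then 90.4 and 89.1 on day 7, then 3.89 and 6.81 for leptotene/zygotene, and 5.29 and 7.57 for pachytene. The testis libraries and the spermatocyte libraries did not overlap for either gene, and the 2 genes moved in opposite directions. Psma8 was higher than at day 7 by 3.86 ± 0.52 in leptotene/zygotene (log2, SE, adjusted p = 7.83e-05) and by 5.79 ± 0.56 in pachytene (adjusted p = 1.09e-05). Psma7 differed by -3.96 ± 0.34 (adjusted p = 4.66e-06) and -3.79 ± 0.33 (adjusted p = 6.13e-06). Psma8 was higher again in pachytene than in leptotene/zygotene, by 1.92 ± 0.47 (adjusted p = 0.0189). That step was not called without leptotene/zygotene replicate 2 (1.40, adjusted p = 0.0758), without pachytene replicate 1 (1.27, adjusted p = 0.104) or with these 2 stages alone (2, adjusted p = 0.111). In both purified stages Psma8 was higher in replicate 1.

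The other standard alpha subunits did not move as a block. Psma6 was at 80.2 to 105 CPM in the testis libraries, 517 and 853 for leptotene/zygotene, and 164 and 201 for pachytene. It was higher than at day 7 in leptotene/zygotene (2.92 ± 0.30, adjusted p = 1.35e-05) and fell by 1.91 ± 0.29 on the log2 scale from there to pachytene (adjusted p = 0.00248). In pachytene it exceeded day 7 by 1.01 ± 0.28 (adjusted p = 0.00821), a call lost with plain library sizes (0.18) and without pachytene replicate 2. Psma1 and Psma2 went the other way. Psma1 was at 66.2 and 67.3 CPM on day 7, then 10.7 and 18.1 for leptotene/zygotene, and 27.7 and 28.5 for pachytene. Psma2 was at 55.9 and 54.3, then 8.26 and 11.6, then 18.1 and 24.9 CPM. Both were below day 7 in each purified stage and higher in pachytene than in leptotene/zygotene, with no overlap of libraries. The differences in leptotene/zygotene were -2.16 ± 0.28 (adjusted p = 7.38e-05) for Psma1 and -2.42 ± 0.29 (adjusted p = 4.24e-05) for Psma2. Their rises to pachytene (0.91 ± 0.28, adjusted p = 0.0461, and 1.07 ± 0.29, adjusted p = 0.0285) were both lost without leptotene/zygotene replicate 1 or pachytene replicate 2, and that of Psma1 also without pachytene replicate 1, without either day 7 library and under the replicate block. Psma5 was lower in leptotene/zygotene (-0.91 ± 0.30, adjusted p = 0.0171), with the call lost under median-ratio factors and DESeq2, and was not called in pachytene (-0.62 ± 0.29, adjusted p = 0.0758). Psma4 was called in none of the comparisons, at 39.8 to 68.6 CPM over the 10 libraries. Psma3 gave little information, at 0 CPM in leptotene/zygotene replicate 1, where 3 counts are worth 1.46 CPM, and 5.71 in replicate 2.

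None of the 7 standard beta subunits was called higher in spermatocytes than at day 7, beside 36.5% of all genes in leptotene/zygotene and 35.1% in pachytene. Psmb1, Psmb2 and Psmb3, which carry no active site, were lower in leptotene/zygotene, and Psmb1 and Psmb2 in pachytene, where Psmb3 was not called (-0.70 ± 0.31, adjusted p = 0.0641). Psmb2 was at 71 and 70.4 CPM on day 7, then 20.4 and 22.4 for leptotene/zygotene, and 25.8 and 29.4 for pachytene. Its libraries did not overlap, with differences from day 7 of -1.71 ± 0.24 (adjusted p = 0.000118) and -1.35 ± 0.24 (adjusted p = 0.000524). Psmb1 in pachytene (-0.89 ± 0.32, adjusted p = 0.0299) lost its call with median-ratio factors and DESeq2 and in 5 of the fits that leave out a library. Psmb4 was not called, at 130 and 129 CPM on day 7, then 34.5 and 103 for leptotene/zygotene, and 58.8 and 123 for pachytene.

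The catalytic subunits Psmb5, Psmb6 and Psmb7 were called in no comparison. Psmb5, the chymotrypsin-like subunit, was at 24.1 and 21.1 CPM on day 1, then 47 and 20.8 on day 3, then 30.5 and 32.7 on day 7, then 28.7 and 31.8 for leptotene/zygotene, and 36 and 34.1 for pachytene. Its difference from day 7 was -0.06 ± 0.35 in leptotene/zygotene and 0.15 ± 0.35 in pachytene. Psmb6, the caspase-like subunit, was at 88.8 and 91.3 CPM on day 7, then 66.6 and 215 for leptotene/zygotene, and 65.7 and 160 for pachytene. Psmb7, the trypsin-like subunit, was at 89 and 86.3, then 61.7 and 144, then 64.5 and 122 CPM. For both, replicate 1 of each purified stage lay below the day 7 libraries and replicate 2 above them, so the stages overlapped.

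The immune subunits, which replace these in interferon-exposed cells, were called lower than at day 7 in 3 of 3 cases in leptotene/zygotene and 2 of 3 in pachytene. Of all genes, 42% and 40.1% were called lower in these comparisons. The calls of Psmb10 held under every alternative. Psmb10 was at 8.13 and 7.59 CPM on day 1, then 11.9 and 9.19 on day 3, then 10.9 and 13.4 on day 7, then 0.486 and 1.2 for leptotene/zygotene, and 0.407 and 1.79 for pachytene. No spermatocyte library reached a testis library, and the differences from day 7 were -3.55 ± 0.55 (adjusted p = 0.000222) and -3.35 ± 0.52 (adjusted p = 0.000241). Psmb8 had 32 and 17 counts at day 7 and 0 and 3 counts in leptotene/zygotene, a ratio of 0.175 on scaled depth with an exact 95% counting interval of 0.0349 to 0.542. It was called lower there (-2.50 ± 0.78, adjusted p = 0.0142), but not without day 7 replicate 1 or leptotene/zygotene replicate 2, and not in pachytene (-1.48 ± 0.66, adjusted p = 0.0646). Psmb9 had 44 and 23 counts at day 7 and 2 and 1 in leptotene/zygotene, a ratio of 0.128 (0.0257 to 0.39). Its call there (adjusted p = 0.0229) and its call in pachytene (adjusted p = 0.0317) were both lost in DESeq2 and in fits without single libraries, among them day 7 replicate 1. Of the immune cell markers, 11 genes of which 10 were tested, 2 were called higher and 4 lower in leptotene/zygotene than at day 7 (median -0.48 on the log2 scale). In pachytene 1 was called higher and 6 lower (median -1.34). Over all genes, 36.5% were higher and 42% lower in leptotene/zygotene (median -0.31), and 35.1% and 40.1% in pachytene (median -0.27). The immune cell markers summed to 87.5 to 108 CPM on day 7, then 137 to 157 in leptotene/zygotene and 93.5 to 99 in pachytene. H2-Ab1 made up most of that sum in spermatocytes, at 87 and 133 CPM in leptotene/zygotene and 73 and 86.9 in pachytene, whereas Csf1r went from 17.6 and 22.1 CPM at day 7 to 4.86 and 2.3 in leptotene/zygotene. Their part in the result was not tested. Psmb11, the thymus subunit, had 2 counts in each leptotene/zygotene library and 1 and 0 in pachytene.

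**Figure D2:**
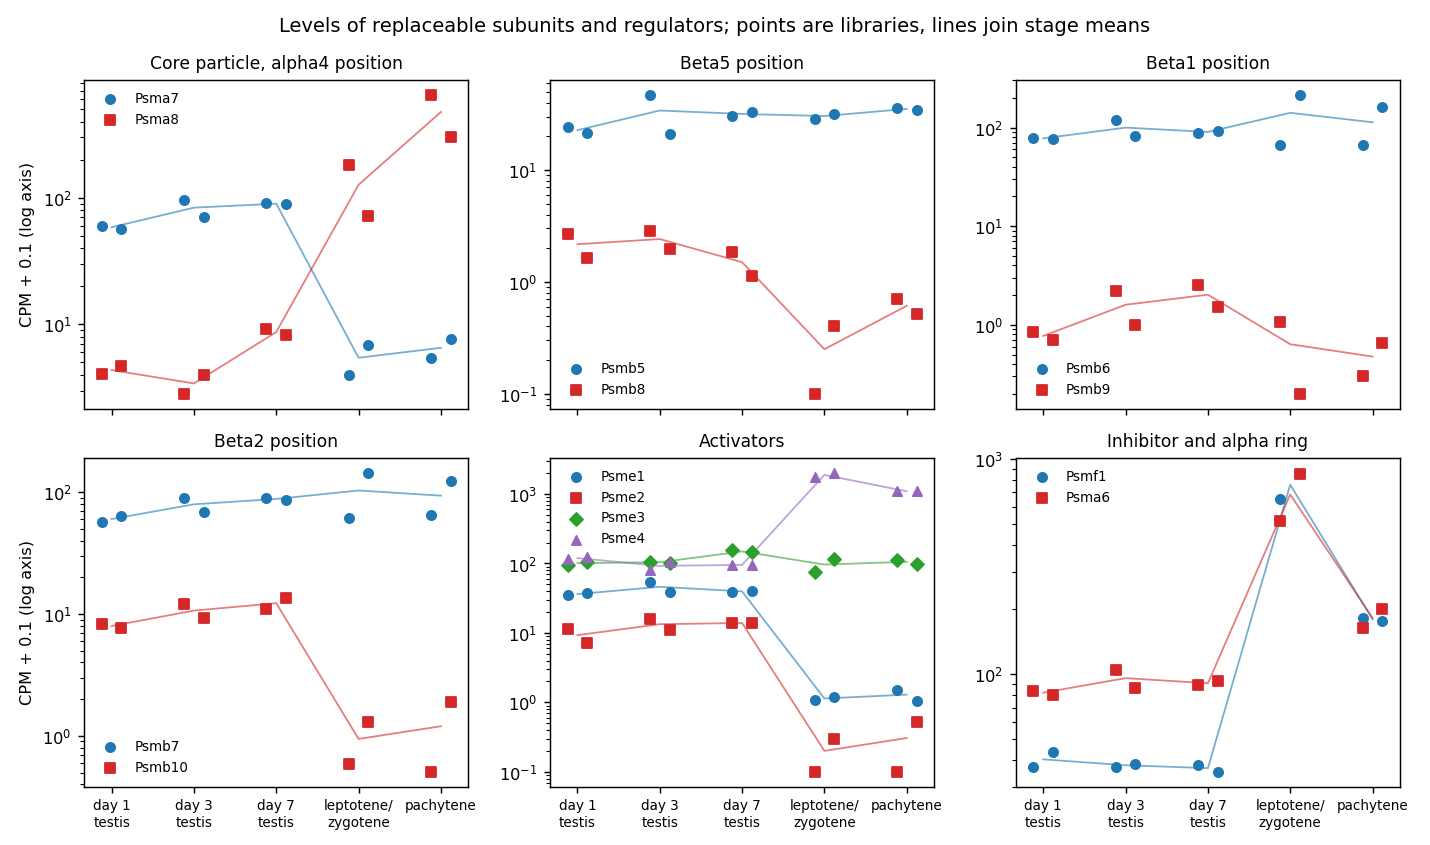
CPM + 0.1 (log axis) by stage for the paralogues at 4 positions of the core, the activators, and Psmf1 with Psma6; points are the 2 libraries of a stage and lines join the stage means. Psma7 and Psma8 cross between day 7 and leptotene/zygotene, while Psmb5 lies between 20.8 and 47 CPM at all stages.

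The 6 ATPases split evenly in leptotene/zygotene, with 2 called higher and 2 lower than at day 7, beside 36.5% and 42% of all genes. Psmc2 was at 77 and 80.2 CPM on day 7, then 388 and 857 for leptotene/zygotene, and 253 and 412 for pachytene. Psmc3 was at 118 and 112, then 367 and 1370, then 367 and 1000 CPM. Both lay above all testis libraries in each purified library, with replicate 2 the higher one. Psmc2 differed from day 7 by 2.99 ± 0.40 (adjusted p = 8.35e-05) and 2.08 ± 0.39 (adjusted p = 0.000805), and Psmc3 by 2.92 ± 0.62 (adjusted p = 0.00163) and 2.58 ± 0.61 (adjusted p = 0.00347). Psmc6 was lower in both stages (-1.18 ± 0.39, adjusted p = 0.0177, and -1.63 ± 0.39, adjusted p = 0.0035). Its call in leptotene/zygotene did not hold with median-ratio factors or without replicate 1 of that stage. Psmc4 was lower in leptotene/zygotene alone among the comparisons with day 7 (-1.20 ± 0.42, adjusted p = 0.0236), and lost that call without replicate 1 of that stage, with DESeq2, with median-ratio factors and with these 2 stages alone. In pachytene against day 7 its difference was -0.75 ± 0.41 (adjusted p = 0.124), and between the purified stages 0.46 ± 0.42, neither called. Psmc1 and Psmc5 were called in no comparison.

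Of the 11 non-ATPase subunits of the cap, 2 were called higher in leptotene/zygotene and 2 lower, beside 36.5% and 42% of all genes. Psmd2, a large scaffold subunit of the base, was at 139 to 224 CPM in testis, 474 and 660 for leptotene/zygotene, and 584 and 582 for pachytene. It exceeded day 7 by 1.41 ± 0.25 (adjusted p = 0.000491) and 1.44 ± 0.25 (adjusted p = 0.000463). With plain library sizes the leptotene/zygotene value was 0.01 and not called. Psmd8, a lid subunit, was at 87.2 and 85.9 CPM on day 7, then 257 and 692 for leptotene/zygotene, and 285 and 522 for pachytene, with differences of 2.46 ± 0.47 (adjusted p = 0.000793) and 2.22 ± 0.46 (adjusted p = 0.00157). Both genes lay above every testis library in all 4 spermatocyte libraries. Psmd14, the deubiquitinase of the lid, was at 44.1 and 43.7 CPM on day 7, then 18.5 and 17.1 for leptotene/zygotene, and 30.9 and 38.4 for pachytene. It was lower in leptotene/zygotene (-1.31 ± 0.26, adjusted p = 0.00112) and rose from there to pachytene (0.97 ± 0.26, adjusted p = 0.0278), a rise lost in fits without either day 7 library, leptotene/zygotene replicate 2 or pachytene replicate 2. Psmd1, the other large scaffold of the base, was called lower in leptotene/zygotene (-0.70 ± 0.28, adjusted p = 0.041). That call was lost with DESeq2, with median-ratio factors and without leptotene/zygotene replicate 1 or either day 7 library, and in pachytene the difference was -0.05 ± 0.28 and not called. Psmd6, a lid subunit, was higher in pachytene (0.89 ± 0.25, adjusted p = 0.00886) and not called with plain library sizes. The remaining 6 cap subunits, among them the ubiquitin receptor Psmd4, were called in no comparison.

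The activators differed in opposite directions: Psme4 was higher in both purified stages, and Psme1 and Psme2 were lower. Psme4 was at 114 and 125 CPM on day 1, then 79.5 and 105 on day 3, then 96.4 and 94.2 on day 7, then 1740 and 2030 for leptotene/zygotene, and 1090 and 1100 for pachytene. Every spermatocyte library was far above every testis library. Psme4 differed from day 7 by 4.31 ± 0.29 (adjusted p = 1.2e-06) and 3.52 ± 0.28 (adjusted p = 3.54e-06), and by -0.78 ± 0.26 (adjusted p = 0.0548) between the purified stages. Psme1, a subunit of the interferon-inducible activator PA28, was at 35.2 and 37 CPM on day 1, then 53.4 and 38.7 on day 3, then 38.6 and 40.5 on day 7, then 0.972 and 1.1 for leptotene/zygotene, and 1.42 and 0.963 for pachytene. It differed from day 7 by -5.19 ± 0.37 (adjusted p = 1.43e-06) and -5.07 ± 0.35 (adjusted p = 1.63e-06). Psme2, its partner subunit, was at or under the floor of 3 counts in spermatocytes. It had 250 and 225 counts on day 7, then 0 and 2 for leptotene/zygotene, and 0 and 3 for pachytene. The ratios to day 7 were 0.012 (0.00145 to 0.0437) and 0.0178 (0.00367 to 0.0525), with adjusted p = 3.64e-05 and 3.71e-05. Psme3, the nuclear activator, was at 154 and 144 CPM on day 7, then 75.8 and 117 for leptotene/zygotene, and 113 and 98.2 for pachytene. Its call in leptotene/zygotene (-0.62 ± 0.25, adjusted p = 0.0441) was lost with DESeq2, with median-ratio factors, under the replicate block and without single libraries, day 7 replicate 1 and leptotene/zygotene replicate 1. In pachytene it was not called (-0.50 ± 0.25, adjusted p = 0.0977).

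Psmf1 (PI31), named for its inhibition of the core in vitro, had the largest increase of the 47 genes in leptotene/zygotene against day 7. It was at 36.8 and 43.4 CPM on day 1, then 37.1 and 38.2 on day 3, then 37.9 and 35.1 on day 7, then 655 and 865 for leptotene/zygotene, and 183 and 177 for pachytene. The stages formed 3 levels with no overlap: testis, pachytene and leptotene/zygotene. The differences from day 7 were 4.38 ± 0.26 (adjusted p = 6.66e-07) and 2.31 ± 0.24 (adjusted p = 1.88e-05), and from leptotene/zygotene to pachytene Psmf1 fell by 2.08 ± 0.24 (adjusted p = 0.000938).

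Of the 7 assembly chaperones, 3 were called lower than at day 7 in leptotene/zygotene and 2 in pachytene, beside 42% and 40.1% of all genes. None was called higher, beside 36.5% and 35.1% of all genes. Psmd5, a chaperone of the ATPase ring, was lower in both stages (-1.95 ± 0.25, adjusted p = 5.77e-05, and -1.86 ± 0.24, adjusted p = 7.52e-05), from 64.7 and 64 CPM at day 7 to 18 and 15.6 for leptotene/zygotene and 19.3 and 16.1 for pachytene. Psmg1 to Psmg4 help to build the alpha ring. Psmg3 had 220 and 205 counts on day 7, then 3 and 5 for leptotene/zygotene, and 20 and 46 for pachytene. Its level was lowest in leptotene/zygotene (1.46 and 0.501 CPM) and in between in pachytene (4.07 and 6.33), with 12.1 and 12.6 at day 7 and no overlap. The difference in leptotene/zygotene was -4.09 ± 0.53 (adjusted p = 6.91e-05). Its rise to pachytene (2.85 ± 0.56, adjusted p = 0.0074) was not called without leptotene/zygotene replicate 2. In pachytene against day 7 (-1.23 ± 0.39, adjusted p = 0.0157) it was not called with median-ratio factors, without either day 7 library or without pachytene replicate 1. Psmg1 was at 16.9 to 28.1 CPM in testis, 7.78 and 17.1 for leptotene/zygotene, and 23.6 and 32.6 for pachytene. It was called lower in leptotene/zygotene (-1.07 ± 0.36, adjusted p = 0.0202), but not without replicate 1 of that stage, with median-ratio factors or with these 2 stages alone. Psmg2, at 26.4 and 21.2 CPM on day 7, then 16 and 36.5 for leptotene/zygotene and 22.4 and 34.1 for pachytene, was called nowhere. Psmg4 was not called either, at 9.65 and 11.5, 1.94 and 7.71, and 5.29 and 10.2 CPM. Psmd10 (gankyrin), the only one of the 48 on the X chromosome, was at 19.1 and 16.3 CPM on day 7, then 20.4 and 34.8 for leptotene/zygotene, and 8.95 and 12.4 for pachytene. It fell by 1.39 ± 0.34 between the purified stages (adjusted p = 0.0188), a call lost in 6 of the fits that leave out a library.

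**Figure D3:**
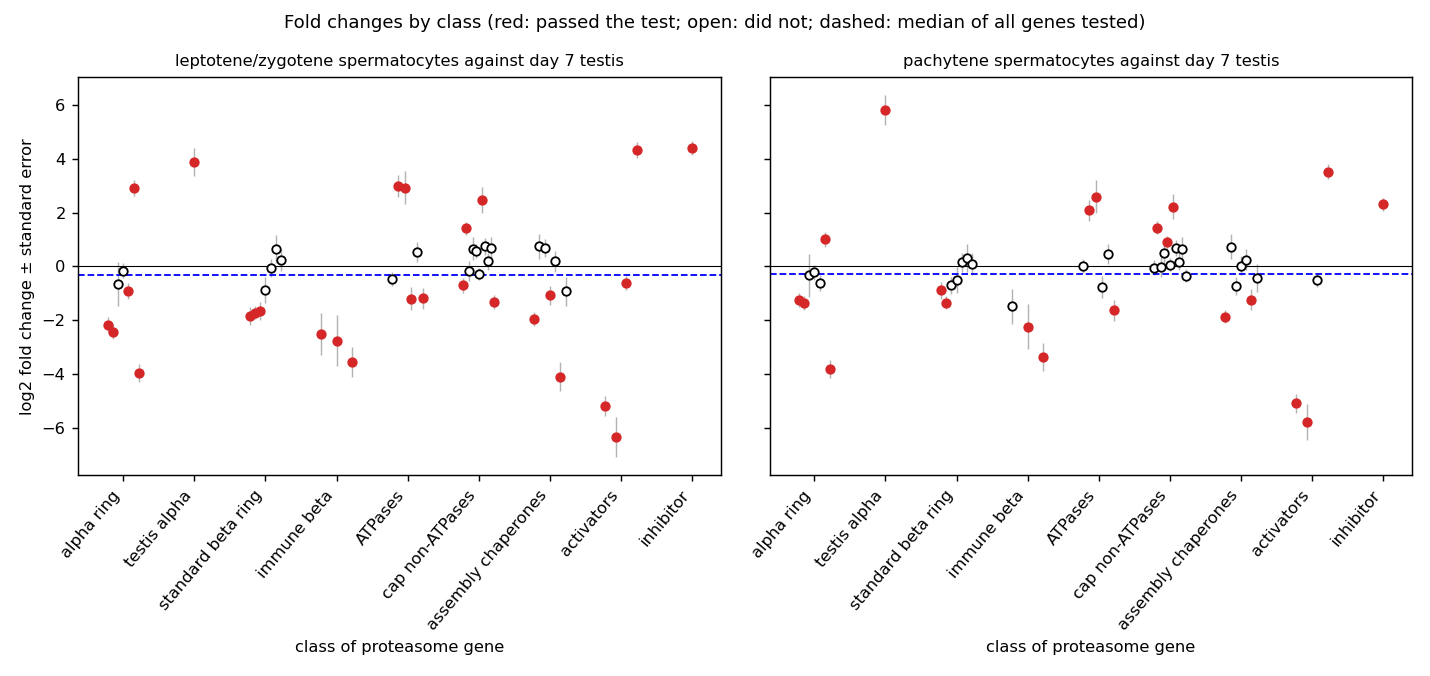
Log2 fold changes with standard errors (vertical axis) of the 47 genes by class (horizontal axis), for leptotene/zygotene and for pachytene, each against day 7 testis. Red points passed the test, open points did not, and the dashed line is the median of all genes tested. Psme4 (4.31) and Psmf1 (4.38) stand at the top in leptotene/zygotene against day 7, with Psme1 (-5.19) and Psme2 (-6.32) at the bottom.

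Between the purified stages, 8 of 47 genes (17%) were called, beside 22.2% of all genes (9.03% higher and 13.2% lower in pachytene). Psma1, Psma2, Psma8, Psmd14 and Psmg3 were higher in pachytene, and Psma6, Psmd10 and Psmf1 were lower. The libraries did not overlap for 18 of 47, beside 49.2% of all genes. Psma6 and Psmf1 held their calls under every alternative, and the other 6 did not. The count was 5 without either day 7 library or either pachytene library, 2 with these 2 stages alone, and 16 (14 higher) with plain library sizes, where the median of all genes was 0.49 in place of -0.06. With upper-quartile factors it was 9 higher and 3 lower. The spermatid markers moved along the same step: all 7 were lower in pachytene, with a median log2 difference of -3.45. Of the 7, 4 were called lower, beside 13.2% of all genes. Psma6 and Psmf1 were highest in the leptotene/zygotene libraries, where those markers were highest, whereas Psma8 was highest in pachytene. The part of the spermatid markers in these differences was not tested.

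**Figure D4:**
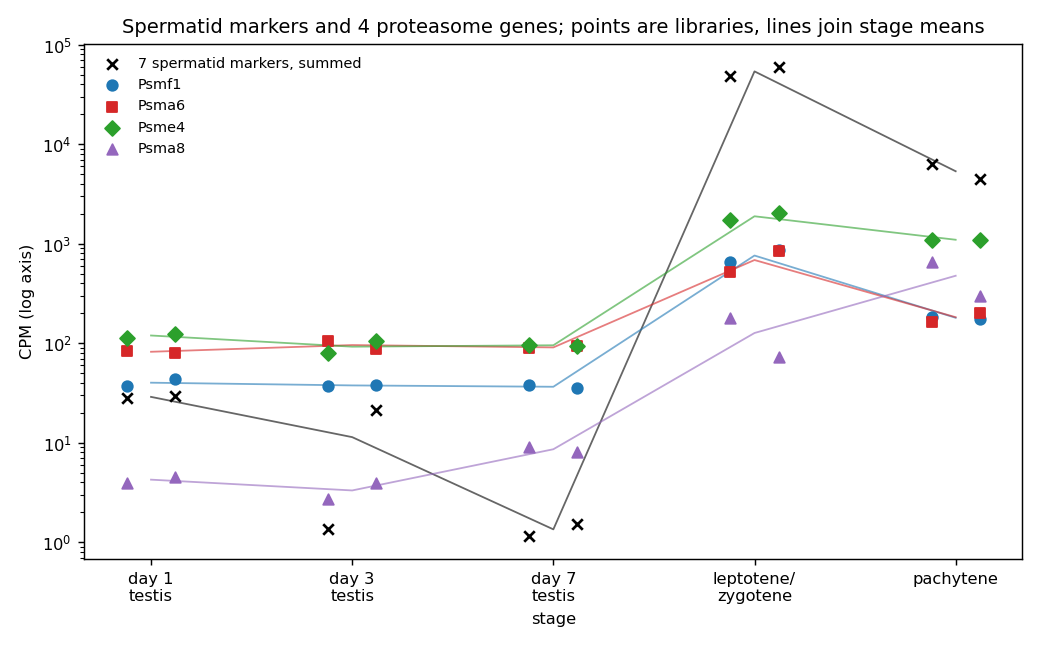
CPM (log axis) by stage of the 7 spermatid markers summed and of Psmf1, Psma6, Psme4 and Psma8; points are libraries and lines join stage means. The markers peak in leptotene/zygotene (48700 to 58900 CPM), as do Psmf1, Psma6 and Psme4, while Psma8 is highest in pachytene (652 and 300 CPM).

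Ratios of 2 genes within a library do not depend on library scaling and allow a test of the 6 testis libraries against the 4 spermatocyte libraries. For 6 pairs the log2 ratio of counts, with 0.5 added, was compared by a two-sided exact permutation test, whose smallest p is 0.00952. Psma8 to Psma7 was -5.14 to -3.31 in the testis libraries and 3.40 to 6.92 in spermatocytes, a difference of 9.20 between the means (exact p = 0.00952, adjusted over the 6 pairs 0.0114). Psme4 to Psme3 went from -0.20 ± 0.42 (SD, n = 6) to 3.85 ± 0.58 (SD, n = 4), and Psme1 to Psme3 from -1.53 ± 0.36 to -6.35 ± 0.32, both with an exact p = 0.00952 and adjusted 0.0114. Psmb10 to Psmb7 went from -2.90 ± 0.14 to -6.57 ± 0.43 and Psmb8 to Psmb5 from -3.91 ± 0.61 to -6.30 ± 0.52, with the same exact p and adjusted value. In these 5 pairs the groups did not overlap. Psmb8 to Psmb5 rests on 0 to 3 counts of Psmb8 in each spermatocyte library, and with 5 counts added the difference was -0.93 (exact permutation p = 0.0667, adjusted 0.08). Psmb9 to Psmb6 overlapped: it was -6.88 to -5.18 in testis and -10.48 to -5.78 in spermatocytes (exact p = 0.0571, adjusted 0.0571). Without leptotene/zygotene replicate 1, which had 2 counts of Psmb9, it differed by -2.60 (exact p = 0.0238, adjusted 0.0238), and without replicate 2 of that stage by -1.03 (exact p = 0.143, adjusted 0.143). Replicates within a stage share more than libraries of different stages, and the test treats all libraries of a side alike.

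**Figure D5:**
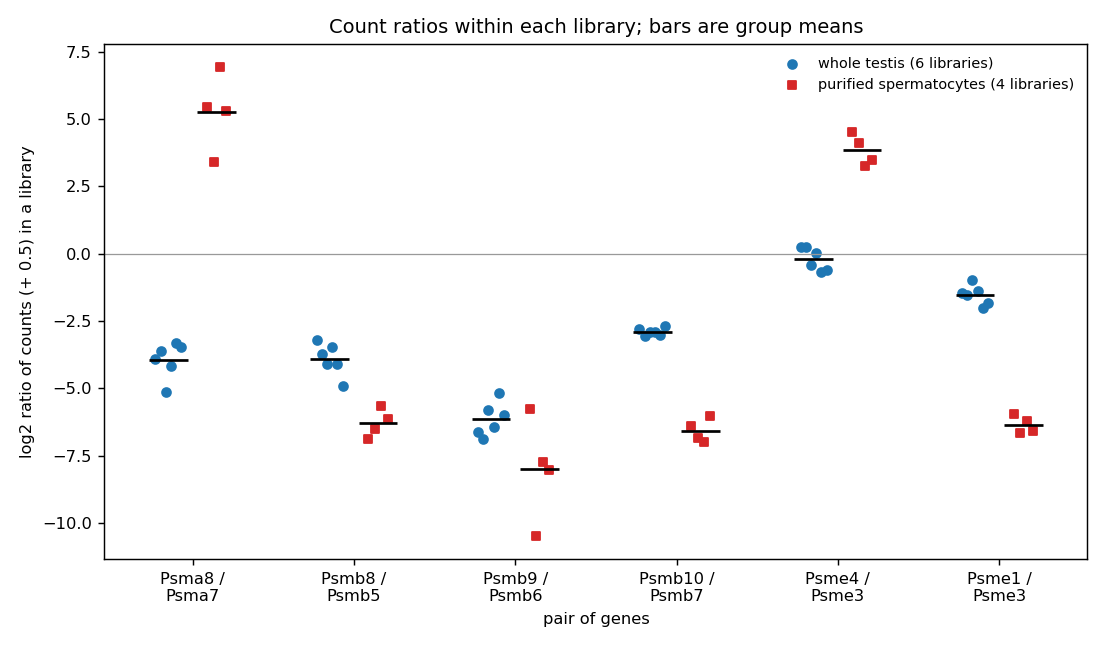
Log2 ratio of counts (+ 0.5) within each library for 6 pairs of genes, with the 6 whole testis libraries and the 4 purified spermatocyte libraries side by side. The sides separate in all pairs but Psmb9 to Psmb6, with Psma8 to Psma7 the widest apart (9.20 between the means).

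Standard subunits, which are assembled in equal numbers, became less even in RNA. Lengths of the transcripts were not used here, so levels of different genes are not compared, only how their proportions moved. Among the 31 standard subunits the SD of log2(CPM + 1) was 0.88 to 0.96 in the testis libraries, 2.03 and 2.12 for leptotene/zygotene, and 1.69 and 1.74 for pachytene. Over all genes it was 2.27 to 2.36 in testis and 2.59 to 2.87 in spermatocytes. Psma6, Psmc2, Psmc3, Psmd2 and Psmd8, chosen after their values were seen, took 22.6% to 24.4% of the summed CPM of the 31 in testis, 66.8% and 69.5% for leptotene/zygotene, and 54.6% and 58.2% for pachytene. The SD of the 31 log2 differences was 0.19 and 0.16 in the steps of the first week 1.62 in leptotene/zygotene against day 7 and 1.24 in pachytene against day 7, beside 0.73, 0.93, 4.50 and 4.09 over all genes. The summed CPM of the 31 was 2430 and 2390 on day 7, then 3000 and 6380 for leptotene/zygotene, and 3020 and 4670 for pachytene. This sum depends on the scaling factors of the libraries. As a share of unscaled counts, all proteasome genes together made up 0.409% and 0.402% on day 7. Leptotene/zygotene libraries stood at 0.329% and 0.469%, pachytene ones at 0.397% and 0.51%. Whether total proteasome RNA differed was not tested.

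Genes that act with the proteasome were called about as often as all genes. Of 27 cofactors and ubiquitin genes, 11 (40.7%) were higher and 9 (33.3%) lower in leptotene/zygotene than on day 7, beside 36.5% and 42% of all genes. In pachytene 12 (44.4%) were higher and 8 (29.6%) lower, beside 35.1% and 40.1%. None of them was called in the first week. Nfe2l1, the transcription factor that raises proteasome genes when the proteasome fails, was lower (-2, adjusted p = 3.72e-05, and -1.53, adjusted p = 0.000215). Ngly1, the enzyme that processes Nfe2l1, was higher (4.87, adjusted p = 4.08e-07, and 3.70, adjusted p = 1.5e-06). Pomp, the chaperone of the beta ring, was lower in leptotene/zygotene (-1.58, adjusted p = 0.00469) and not called in pachytene (-0.71, adjusted p = 0.117). Polyubiquitin Ubb was higher (3.47, adjusted p = 9.68e-05, and 3.22, adjusted p = 0.000169), and Uba1, the main ubiquitin-activating enzyme, was lower (-1.68, adjusted p = 0.000141, and -3.31, adjusted p = 3.24e-06). Ddi1, a protease with a ubiquitin-like domain, had 0 counts at day 7. Against a floor of 3 counts over that stage, it was at least 9900-fold higher in leptotene/zygotene and at least 2770-fold higher in pachytene. From leptotene/zygotene to pachytene, 6 of the 27 (22.2%) were lower and 0 higher, beside 13.2% and 9.03% of all genes.

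Class I antigen presentation, which uses peptides made by the immune subunits, gave 1 gene higher and 7 lower of 15 in leptotene/zygotene against day 7, and 0 higher and 7 lower in pachytene. The 7 lower genes are 46.7% of the list, beside 42% and 40.1% of all genes. None was called in the first week. The peptide transporter genes Tap1 (-4.83, adjusted p = 2.42e-05, and -3.01, adjusted p = 0.000127) and Tap2 (-4.10, adjusted p = 2.83e-05, and -1.67, adjusted p = 0.00167) were lower. So were B2m (-2.70, adjusted p = 0.00326, and -2.01, adjusted p = 0.0119), the light chain of class I, and the peptidase Erap1 (-4.77, adjusted p = 2.55e-06, and -4.60, adjusted p = 2.93e-06). Nlrc5, an activator of class I genes, was higher in leptotene/zygotene (1.67, adjusted p = 0.00905) and not called in pachytene (0.17, adjusted p = 0.777). Somatic cells of the testis express these genes too, and the part of their smaller share in the purified fractions was not tested.

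In the genome the 48 genes lie on 16 chromosomes, and a few are neighbours. In the RefSeq annotation of GRCm38.p6, Psmb9, Tap1, Psmb8 and Tap2 follow each other on chromosome 17. The full promoter entries of Psmb9 and Tap1, which are transcribed in opposite directions, share 275 bases. Psmb8, Psmb9, Tap1 and Tap2 were all called lower in leptotene/zygotene than at day 7, as were 42% of all genes. The calls of Psmb8 and Psmb9 did not hold under every alternative, and Psmb8 was not called in pachytene. Psme1 and Psme2, with Emc9 between them on chromosome 14, were both lower in both purified stages. Psmb5 and Psmb11 are also neighbours on chromosome 14.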

How the data were processed

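Total RNA was sequenced from 10 libraries, 2 for each of 5 stages. RNA was isolated with TRIzol, per the labels' protocols. The deposited table holds raw counts per gene symbol, as whole numbers, for all 10 libraries. The submitters' processing notes name HTSeq 0.6.1, BWA 0.7.8, edgeR 3.6.8, Bowtie 0.12.7 and the build mm9; which tool made which table is not given in the sources used here, nor is strand use, so reads of overlapping, antisense or near-identical genes are uncertain. The 5 summary categories of HTSeq (44.7% to 64.5% of reads per library) were left out. The small RNA table was not used here.

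Genes were kept by filterByExpr with a minimum count of 10, which left 16872. Libraries were scaled by TMM. All 10 were fitted by stage with edgeR 4.0.16 (R 4.3.3, limma 3.58.1), with 5 residual degrees of freedom. The two-sided quasi-likelihood F test was adjusted by Benjamini-Hochberg over all genes, at 0.05. A standard error (SE) was taken as the size of the log2 difference divided by the root of F. Every p-value across genes comes from this fit unless another tool or setting is named. The fit was tried on simulated counts with a common dispersion for all genes. That trial did not imitate the wider spread between replicates of the purified stages, so it cannot show how the fit does there. Nothing in the labels says which animals a replicate holds beyond 2 biological replicates per sample. Intervals and floors cover counting error only.

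All genes that match the rule on symbols are accounted for. Named with their values per library were the gene pairs, catalytic and immune subunits, activators, Psmf1, Psmg1 to Psmg4 and up to 4 members with the largest rise and fall per comparison; for other members the choice to name them followed their values. The members, classes, pathway lists and marker lists were chosen with earlier results of these data known. Psmc3ip is not a proteasome subunit and does not match the rule. Promoter sequences and neighbours are from RefSeq tables of GRCm38.p6, in which 48 of 48 symbols matched; the authors' build differs, and these coordinates were not joined to the counts. Alternatives were DESeq2 1.42.0, median-ratio and upper-quartile factors, plain library sizes, no filter, only the 2 stages compared, the replicate number as a block, each library left out in turn, 5 in place of 0.5 added to counts in ratios, and the 2 fits added after seeing the data, without the spermatocyte or the leptotene/zygotene libraries.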

Additional observations from a re-analysis of the deposited data

How the results depend on the processing

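No named call of a proteasome gene and none of the 6 ratios changed sign under the alternatives tried, but the balance of higher and lower calls did turn. For the proteasome genes in leptotene/zygotene against day 7 it went from 8 higher and 20 lower to 17 and 15 without leptotene/zygotene replicate 1. For these genes in pachytene against day 7 it went from 9 and 12 to 10 and 9 with median-ratio factors. Between the purified stages it went from 5 and 3 to 0 and 2 with only these 2 stages compared, among other settings. Over all genes, in leptotene/zygotene against day 7, it went from 6163 and 7082 to 6836 and 6349 with DESeq2 and 6766 and 6395 with median-ratio factors. In pachytene against day 7 it went from 5920 and 6761 to 6628 and 6137 with DESeq2 and 6529 and 6131 with median-ratio factors. In pachytene against leptotene/zygotene it went from 1524 and 2220 to 3732 and 1107 with plain library sizes. In day 7 against day 3 it went from 157 and 95 to 432 and 594 with DESeq2 and 15 and 69 without day 3 replicate 1, among other settings. Over all genes, day 3 against day 1 gave 0 calls in edgeR (1097 genes at an unadjusted p under 0.05), 79 with DESeq2, 7 without the spermatocyte libraries and 0 to 35 with 1 library left out. Day 7 against day 3 gave 252 calls, 1026 with DESeq2, 437 with no filter on low counts, 1019 with only the 2 stages compared, 2126 without the spermatocyte libraries and 0 to 635 with 1 library left out. It gave 0 without either day 7 library, 84 without day 3 replicate 1, 63 and 55 without day 1 replicate 1 or 2, and 592 and 635 without leptotene/zygotene replicate 1 or 2. Pachytene against leptotene/zygotene gave 3744, 930 with only the 2 stages compared and 2077 to 5073 with 1 library left out; the lower counts came without leptotene/zygotene replicate 2 (2077), either day 7 library (2423 and 2426) or pachytene replicate 1 (2448). Of the proteasome genes, day 7 against day 3 called 1 with only the 2 stages compared (Psma8) and 3 without the spermatocyte libraries. Pachytene against leptotene/zygotene called 2 with only the 2 stages compared, 16 with plain library sizes and 5 to 12 with 1 library left out. Pachytene against day 7 called 34 with plain library sizes and 18 to 28 with 1 library left out. The ratio of Psmb8 to Psmb5 differed by -0.93 with 5 counts added. That of Psmb9 to Psmb6 differed by -2.6 to -1.03 with 1 library left out. The cause of these changes was not tested, beyond the fewer libraries in some fits. Depth limits the low genes in leptotene/zygotene replicate 1, which had 0 counts of Psma3, Psmb8 and Psme2, 1 of Psmb10, 2 of Psmb9, Psmb11 and Psme1, and 3 of Psmg3.

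The replicate numbers were tried as a block. Correlations of the replicate differences over genes ran from -0.153 to 0.746 in the 10 pairs of stages, with 1 pair (leptotene/zygotene and pachytene) above 0.1. That pair had the value of 0.746, so its replicates differed in a shared way. The labels do not say whether same-numbered fractions came from the same preparation, and the main fit did not pair them. The block gave all stages a common replicate effect, so it cannot decide on pairing within the purified stages alone. The effect of such pairing on the calls between these stages was not tested. With the replicate block the genes called were 0, 267, 13207, 3663 and 12653 in the order of the comparisons, and the proteasome genes called were 0, 0, 27, 7 and 21.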

Other observations

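The proteasome genes differed between the replicates of the purified stages in 1 direction more often than genes did in general. Of the 47 tested, 42 were higher in CPM in replicate 2 of leptotene/zygotene, 35 in replicate 2 of pachytene and 32 in both (68.1%). Of all 16872 genes tested, 9408 were higher in replicate 2 of leptotene/zygotene, 7262 in replicate 2 of pachytene and 5997 in both (35.5%). Psma8 went the other way in both stages, at 181 against 72.2 CPM and at 652 against 300 CPM. Replicate 1 also had the larger share of unassigned reads in both stages (63.3% and 64.5%). Its part in these differences was not tested.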
